A study of Mus musculus with 6 samples.

Results

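The genes described here build, load or work in the primary cilium of the kidney tubule, or cause cystic kidney disease when mutated. They comprise 32 genes chosen by symbol for their function: 11 subunits of the intraflagellar transport complex B (IFT-B), 3 of complex A (IFT-A), 7 of the BBSome, 2 BBS chaperonins, 2 ARL GTPases, 3 transition zone genes, 3 polycystin and fibrocystin genes and 1 kinesin-2 motor subunit. All 32 were among the 16095 genes of the deposited table, and all 32 passed the filter on low values that left 14822 genes for testing. RNA came from kidney epithelial cells of 6 libraries, 3 of control mice (Trf1+/+) and 3 of mice with both Trf1 alleles flanked by loxP sites (Trf1lox/lox, called Terf1_flox here; Trf1 is the protein of the gene Terf1). Mice of both groups carried 1 copy of a KFP reporter and 1 copy of a tamoxifen-inducible Cre (CreERT2) under the Ksp-cadherin promoter, which is active in kidney tubule epithelium. Both groups also received tamoxifen, 3 injections a week over 8 weeks, beginning at 6 to 8 weeks of age in males and females. Cells were sorted by an EpCAM antibody and the KFP signal. The sources used here do not give the number of mice behind a library. The technical part of the spread between libraries can therefore not be told from differences between mice.

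The primary cilium is a single antenna-like projection of the tubule cell that senses flow and signals. IFT-B trains driven by kinesin-2 carry cargo to its tip, IFT-A trains bring it back, and the BBSome moves membrane proteins out of it. The transition zone at its base acts as a gate. Polycystin-1 (Pkd1) and polycystin-2 (Pkd2) form a receptor-channel complex on its membrane, and fibrocystin (Pkhd1) is a further ciliary membrane protein. Mutations of these 3 genes cause polycystic kidney disease, and mutations of IFT, BBS and transition zone genes cause nephronophthisis, Bardet-Biedl syndrome and related ciliopathies.

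Depth ran from 13582140 to 17680986 reads per library, of which the 32 genes took between 14778 and 20524 reads. Terf1, the targeted gene, stood at 530, 486 and 664 normalized counts in control and 62.0, 24.6 and 25.3 in the Terf1_flox group, and the groups did not overlap. The log2 fold change was -3.99 ± 0.61 (standard error; limma adjusted p = 0.0814 over all genes; exact two-sided permutation p = 0.1, the smallest that 3 against 3 libraries can give). Markers of the thick ascending limb summed to between 161960 and 206066 normalized counts in control and between 133917 and 141500 in the Terf1_flox group. Without Umod, 1 of these 6 markers, the other 5 gave sums of 64824 to 67969 in control libraries and of 72207 to 75421 in Terf1_flox ones, the opposite order. Those of the distal convoluted and connecting tubule summed to between 119423 and 210678 and between 117748 and 202954. Proximal tubule markers summed to 647 to 1624 and 752 to 3803, those of principal cells to 920 to 2253 and 256 to 942, and those of intercalated cells to 8811 to 20196 and 6010 to 11420. The 3 B lymphocyte markers measured here summed to 4.74 to 17.2 and 24.6 to 136. Other blood cell markers overlapped between groups. They summed to 174 to 213 and 0 to 688 for T and NK lymphocytes (1 marker measured). Macrophage and monocyte markers summed to 20.0 to 78.3 and 17.4 to 143, and erythroid ones to 190 to 746 and 151 to 554. Of 16 markers of motile multiciliated cells, which share many of these genes, 5 were measured here, summing to 415 to 564 in control and 229 to 386 in the Terf1_flox group. Taken singly, each of these 5 overlapped between groups. Dnah11 had 257, 103 and 324 in control and 107, 65.7 and 117 in the Terf1_flox group. Dnai1 reached higher in the Terf1_flox group (40.2, 2.05 and 26.3) than in control (0, 17.2 and 1.58). Of 6 endothelial and 5 podocyte markers, 0 were measured here. Both Xist (1379.8 to 2872) and the Y-linked Ddx3y (3.04 to 951) had reads in all 6 libraries. Ddx3y stood at 347, 123 and 611 normalized counts in control and 915, 951 and 3.04 in the Terf1_flox group. The sex make-up of the libraries was not tested. Epcam, the sort marker, had 4510, 5087 and 4416 normalized counts in control and 1831, 1434 and 2977 in the Terf1_flox group (log2 fold change -1.23 ± 0.29, adjusted p = 0.139 in limma and 0.00748 in DESeq2). Epcam and the thick ascending limb, multiciliated and B lymphocyte sums did not overlap between groups, and their part in the values below was not tested. In sorted bulk cells, fewer cells of a type and less RNA per cell cannot be told apart.

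None of the 32 genes was called as different between Terf1_flox and control cells. In limma and edgeR that count says nothing particular to these genes, since no gene was called, not even the targeted Terf1. In limma, 0 of 32 were called at an adjusted p below 0.05, against 0% of the 14822 genes tested, and adjusted p ran from 0.470 to 0.996. At an unadjusted limma p below 0.05 there were 0 of 32, where the share over all genes was 14.1%. With edgeR 0 of 32 were called (0% of all genes), with 0 at an unadjusted p below 0.05 (13.4% of all genes). With DESeq2 0 were called among the 31 genes that received an adjusted p, where 5.81% of all genes were. A log2 fold change above 0 was found for 19 of the 32 genes, where 47.2% of all genes had one, and below 0 for the other 13. The median was 0.05, beside -0.08 over all genes tested. Without control replicate 2 that median was -0.27, and without Terf1_flox replicate 2 it was -0.21, with 13 and 8 of the 32 genes above 0, so the sign and the count rested on single libraries. The groups did not overlap for 1 of the 32 genes, Pkd2, where 21.1% of all genes had no overlap and 10.3% had none with the Terf1_flox group higher, as for Pkd2.

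**Figure D1:**
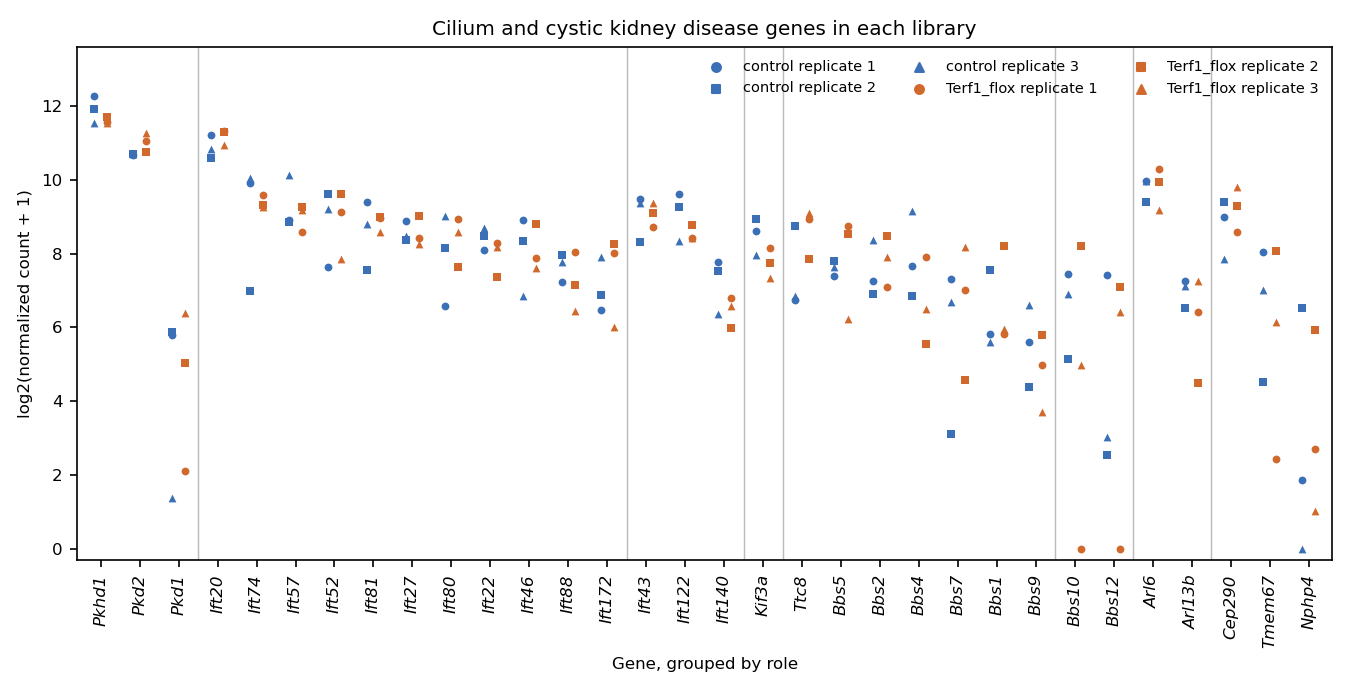
Level of each of the 32 genes, as log2 of the normalized count plus 1, in the 3 control (blue) and 3 Terf1_flox (orange) libraries; each point is 1 library and the marker shape gives the replicate number. Pkd2 is the only gene whose groups separate, and Bbs10 and Bbs12 fall to 0 in Terf1_flox replicate 1.

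The polycystin and fibrocystin genes differed widely in level. Pkhd1 had the highest normalized counts of the 32 genes, with 4897, 3878 and 2985 in control and 3039, 3299 and 2949 in the Terf1_flox group. The lowest control library lay within the range of the Terf1_flox libraries. The log2 fold change was -0.31 ± 0.24 (95% interval -0.85 to 0.23, limma adjusted p = 0.596), and it was -0.59 after correction for transcript GC content and length. Pkd2, the channel subunit, was nearly constant in control libraries, at 1628, 1669 and 1647, and had 2118, 1712 and 2456 in the Terf1_flox group. Every Terf1_flox library lay above every control library, the nearest of them by a small margin. Its log2 fold change was 0.33 ± 0.24 (95% interval -0.23 to 0.89, limma adjusted p = 0.587). With quantile normalization the groups overlapped.

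Pkd1, which codes for the large receptor partner of Pkd2, had few reads in every library. Control libraries held 54.5, 57.2 and 1.58 normalized counts, and Terf1_flox libraries 3.26, 31.8 and 83.0. These values rested on between 2 and 82 reads, and each group held libraries at both ends of the range. The log2 fold change of 0.17 ± 1.65 had a 95% interval from -3.58 to 3.91, so a change of several-fold in either direction could not be detected. The coefficient of variation between libraries was 83.1% in control and 103% in the Terf1_flox group, where counting error alone would give 15.8%.

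Per length of the longest annotated transcript, Pkd1 had the lowest mean of the 32 genes, although Nphp4 lay below it in 3 of 6 libraries and their ranges overlapped. The Pkd1 level was 2.72 ± 2.28 normalized counts per kb (SD over 6 libraries), which placed it at percentile 1.41 of all genes tested with a known length. Pkd2 had 359 ± 65.2 per kb and Pkhd1 271 ± 59.0 per kb, 132 and 99.6 times the Pkd1 level. This difference in level was present in both groups, with Pkd1 at 2.67 per kb in control and 2.78 in the Terf1_flox group. Pkd1 has a transcript of 14164 bases with 56.8% GC, and Pkhd1 one of 12935 bases with 47.4% GC. The part of GC content in the low Pkd1 level was not tested.

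Ift20, an IFT-B subunit that also sits at the Golgi, had the highest level per length, at 1866 ± 360.3 normalized counts per kb. Its lowest library, at 1362 per kb, lay above the highest library of any other of the 32 genes. Ift43 of IFT-A followed at 704 ± 196 per kb and Arl6, the GTPase that recruits the BBSome to membranes, at 539 ± 144 per kb, with overlapping ranges. In all, 21 of the 32 genes lay above the median level per kb of the genes tested. Below Ift20 the order of neighbouring genes cannot be read as a ranking, since the ranges over libraries of neighbours overlapped.

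**Figure D2:**
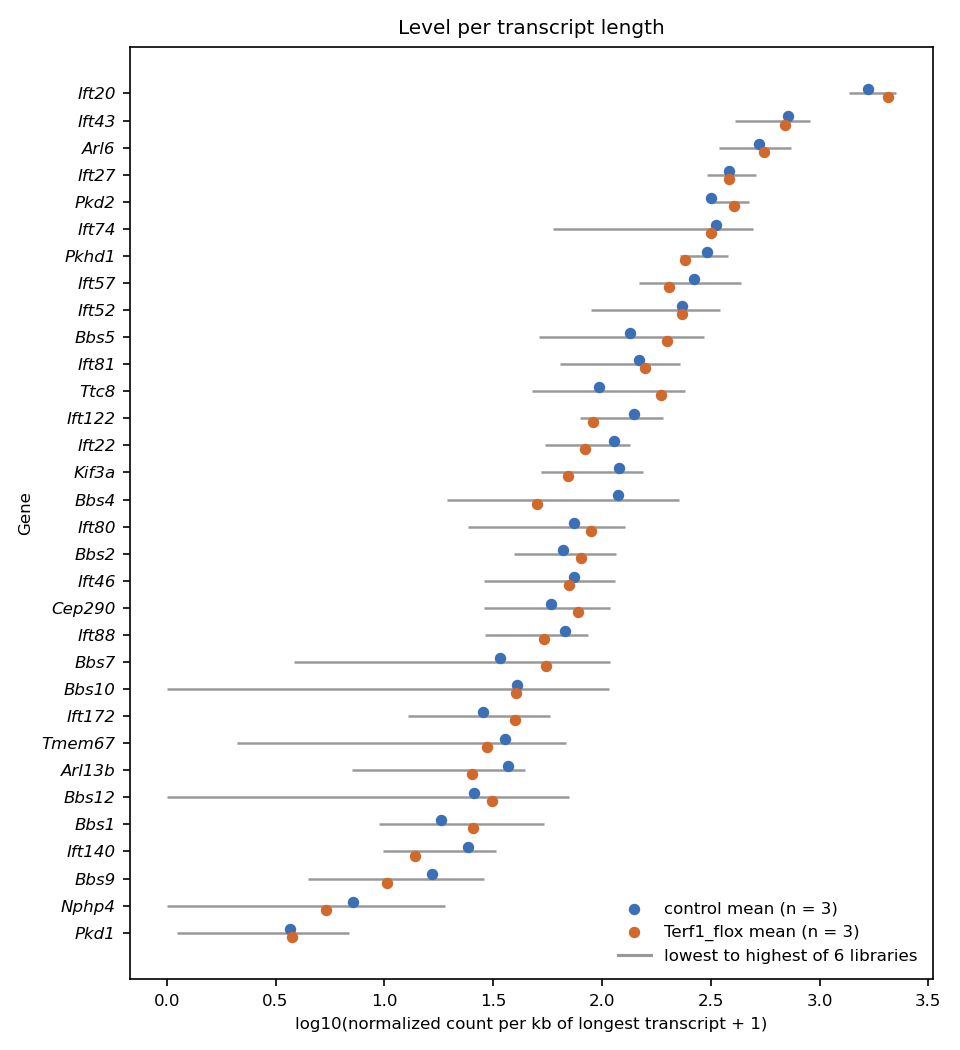
Level per kb of the longest annotated transcript, as log10 of the normalized count per kb plus 1, for the 32 genes; points are group means (n = 3 each) and grey lines run from the lowest to the highest of the 6 libraries. Ift20 stands above the other genes at a mean of 1866 per kb, while the ranges of Nphp4 and Pkd1 (means of 5.28 and 2.72 per kb) overlap.

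Within the protein complexes, levels per length were far from equal. The 11 IFT-B genes ran from 33.0 (Ift172) to 1866 (Ift20) normalized counts per kb, and Ift20 was the highest IFT-B gene in each of the 6 libraries. Among the 3 IFT-A genes, Ift43 was the highest and Ift140 the lowest per kb in each library. The longest transcripts differed too, with 783 bases for Ift43 and 6942 for Ift140, and 1141 for Ift20 and 5403 for Ift172. The part of transcript length in these orders was not tested. The 7 BBSome genes ran from 12.4 (Bbs9) to 165 (Bbs5) per kb and had no fixed order. Bbs5 was the highest BBSome gene in control replicate 1 and Terf1_flox replicates 1 and 2, Ttc8 in control replicate 2 and Terf1_flox replicate 3, and Bbs4 in control replicate 3.

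Among IFT-B genes, 7 of 11 lay above 0 and 4 below (median log2 fold change 0.06). Ift20 had 2366, 1554 and 1812 normalized counts in control and 2574, 2497 and 1973 in the Terf1_flox group. The groups overlapped through control replicate 1, and the log2 fold change was 0.31 ± 0.26 (95% interval -0.28 to 0.90, limma adjusted p = 0.640). Ift74, which pairs with Ift81 to bind tubulin, had 954, 126 and 1061 in control and 773, 632 and 612 in the Terf1_flox group. Control replicate 2 was far below the other 5 libraries, and the log2 fold change was 0.41 ± 0.75 with it and -0.59 without it. Ift81 was also lowest in that library, at 186 against 673 and 444 in the other control libraries. Ift80, a peripheral IFT-B subunit mutated in short-rib skeletal ciliopathies, had 94.1, 285 and 515 in control and 491, 197 and 381 in the Terf1_flox group. The control libraries alone spanned a wider range than the Terf1_flox libraries, and the log2 fold change was 0.47 ± 0.69, or -0.20 without control replicate 1. Ift22, a small GTPase-like subunit, had 270.1, 353 and 409.7 in control and 311, 164 and 288 in the Terf1_flox group, which overlapped (log2 fold change -0.47 ± 0.46, or -0.07 after correction for GC content and length).

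Ift122 and Ift140 of IFT-A had lower means in the Terf1_flox group, with groups that overlapped. Other IFT-A subunits, from the further lists described below, went in both directions. Wdr35 and Wdr19 had log2 fold changes of 1.17 ± 0.73 and 0.94 ± 1.38, and Ttc21b one of -0.93 ± 0.95. Their groups overlapped too (limma adjusted p = 0.515, 0.804 and 0.709). Ift122 had 779, 618 and 321 normalized counts in control and 344, 435 and 339 in the Terf1_flox group. Control replicate 3 was the lowest of all 6, and the log2 fold change was -0.54 ± 0.44 (95% interval -1.54 to 0.47, limma adjusted p = 0.632), or -0.22 after correction for GC content and length. Ift140 had 219, 185 and 81.3 in control and 109.9, 61.6 and 94.1 in the Terf1_flox group. Here too control replicate 3 lay among the Terf1_flox libraries, and the log2 fold change was -0.78 ± 0.67 (limma adjusted p = 0.646). The small subunit Ift43 was at 562 ± 212 in control and 541 ± 117 in the Terf1_flox group (SD, n = 3 each), with a log2 fold change of 0.01 ± 0.43.

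Kif3a, the motor subunit of heterotrimeric kinesin-2 whose loss from tubules removes cilia, had 389, 485 and 250.2 normalized counts in control and 282, 211 and 162 in the Terf1_flox group. Only control replicate 3 and Terf1_flox replicate 1 crossed over. The log2 fold change was -0.76 ± 0.48 (95% interval -1.85 to 0.33, limma adjusted p = 0.515). It ran from -1.03 to -0.55 when single libraries were left out.

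The BBSome subunits went in different directions, 5 of 7 above 0 and 2 below. Ttc8, which is BBS8, had the smallest p of the 32 genes. Its control libraries held 106, 431 and 115 normalized counts and its Terf1_flox libraries 489, 229 and 542. Control replicate 2 lay within the Terf1_flox range, and the log2 fold change was 1.17 ± 0.67 (95% interval -0.34 to 2.69, limma adjusted p = 0.470). Leaving out control replicate 2 gave 1.82, with an unadjusted limma p of 0.0172 and an adjusted p of 0.309. Bbs4 pointed the other way, with 203, 113 and 566 in control and 238, 46.2 and 89.1 in the Terf1_flox group (-1.23 ± 0.83, limma adjusted p = 0.544). Control replicate 3 was far above the other 5 libraries, and without it the log2 fold change was -0.60. Bbs7, a subunit of the BBSome core, ranged over 37.8-fold within the set of libraries, with 157, 7.63 and 103 in control and 127, 22.6 and 288 in the Terf1_flox group. Its log2 fold change of 0.88 ± 1.34 became -0.42 without control replicate 2. Bbs1, the subunit that binds Arl6, peaked in control replicate 2 (187) and Terf1_flox replicate 2 (297) and lay between 47.4 and 60.7 in the other 4 libraries.

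The BBS chaperonins, which help assemble the BBSome, each had a library at 0 reads. Bbs10 had 173, 34.3 and 118 normalized counts in control and 0, 294 and 30.4 in the Terf1_flox group, so 1 Terf1_flox library had no read and another was the highest of all 6. Its group means were nearly equal, at 109 ± 70.0 and 108 ± 161. The fitted log2 fold change of -2.10 ± 1.87 rested on the library at 0 and was 0.09 without it, and 0.01 in both edgeR and DESeq2. Bbs12 ranged from 0 to 169.8, with a log2 fold change of 0.19 ± 2.10.

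Of the ARL GTPases, Arl6 had 893 ± 185 normalized counts in control and 936 ± 336 in the Terf1_flox group, and its log2 fold change of 0.02 had a 95% interval from -0.83 to 0.88. Arl13b, the GTPase of the ciliary membrane that is widely used as a cilium marker, had 153, 90.5 and 138 in control and 83.8, 21.6 and 152 in the Terf1_flox group. Terf1_flox replicate 3 was within the control range, and the log2 fold change was -0.92 ± 0.85 (limma adjusted p = 0.675), or -0.14 at its nearest to 0 when single libraries were left out. Among the transition zone genes, Cep290, which links the membrane to the microtubules of the gate, had 510.2, 669 and 228 in control and 382, 619 and 887 in the Terf1_flox group. The groups overlapped widely, and the log2 fold change of 0.47 ± 0.52 was -0.26 after correction for GC content and length. Tmem67 (meckelin) ranged from 4.35 to 266, with a log2 fold change of -0.98 ± 1.51. Nphp4 ranged from 0 to 90.5, with 2 libraries above 50 and the others under 6. The 16 genes not given library by library here had log2 fold changes from -0.98 to 0.41, and 0 of them passed.

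**Figure D3:**
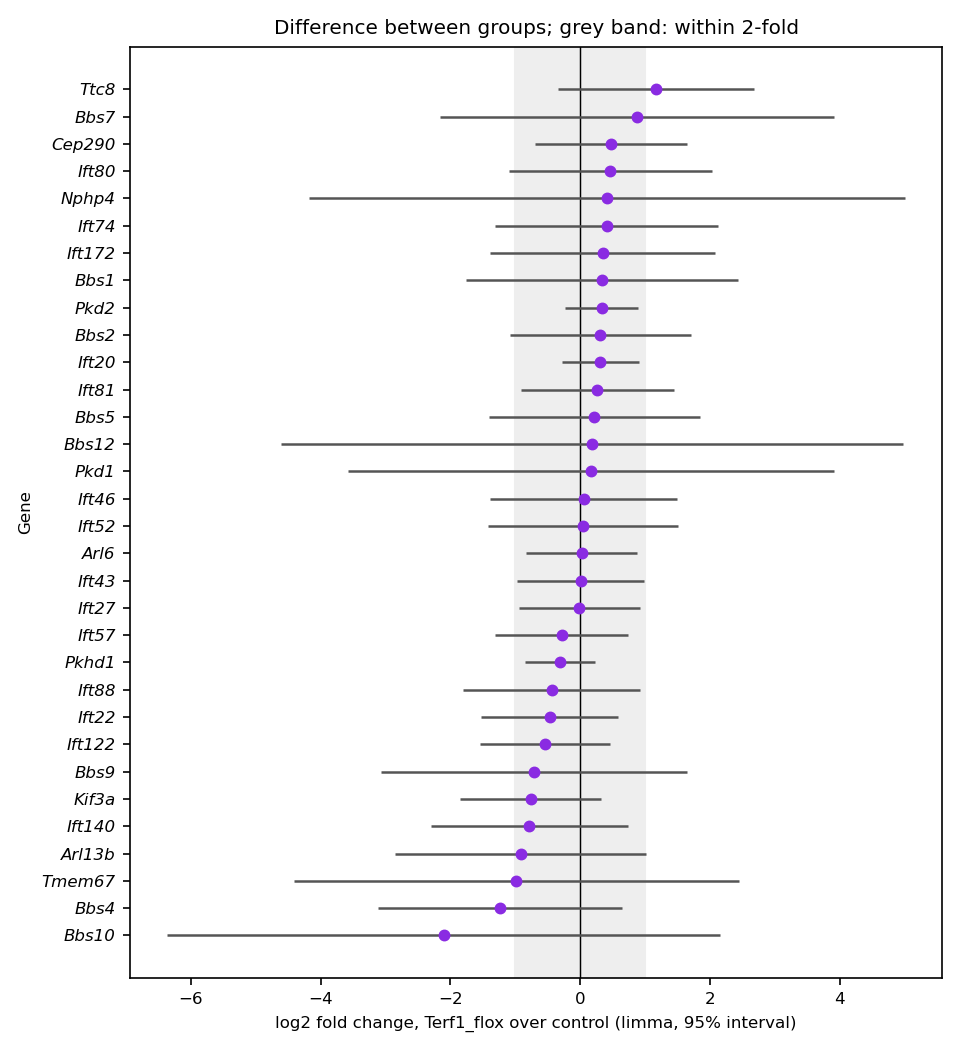
Log2 fold change of the 32 genes, Terf1_flox over control, with the limma 95% interval; the grey band marks changes of less than 2-fold. Each interval spans 0, and those of 6 genes lie wholly within the band.

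How large a change these data leave possible depended on the gene. For 6 genes (Ift20, Ift27, Ift43, Arl6, Pkd2 and Pkhd1), 18.8% of the 32, the 95% interval lay within a 2-fold change in either direction, as it did for 6.04% of all genes tested. For 15 genes the interval reached a 4-fold change or more in at least 1 direction. The SD between libraries within groups, on the log2 scale, was between 0.19 and 0.26 for the 3 genes whose mean reached 1000 normalized counts. For the 11 genes with a mean from 300 to 1000 its median was 0.69, for the 14 from 100 to 300 it was 1.01, and for the 4 under 100 it was 2.68. The medians over all genes in the same ranges were 0.34, 0.59, 0.96 and 1.83. This spread was well above counting error. The coefficient of variation had a median of 55.5% in control and 43.4% in the Terf1_flox group, where reads alone would give 5.36% and 6.22%. It exceeded the counting value for 31 of 32 genes in control, all but Pkd2, and for 32 of 32 in the Terf1_flox group.

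**Figure D4:**
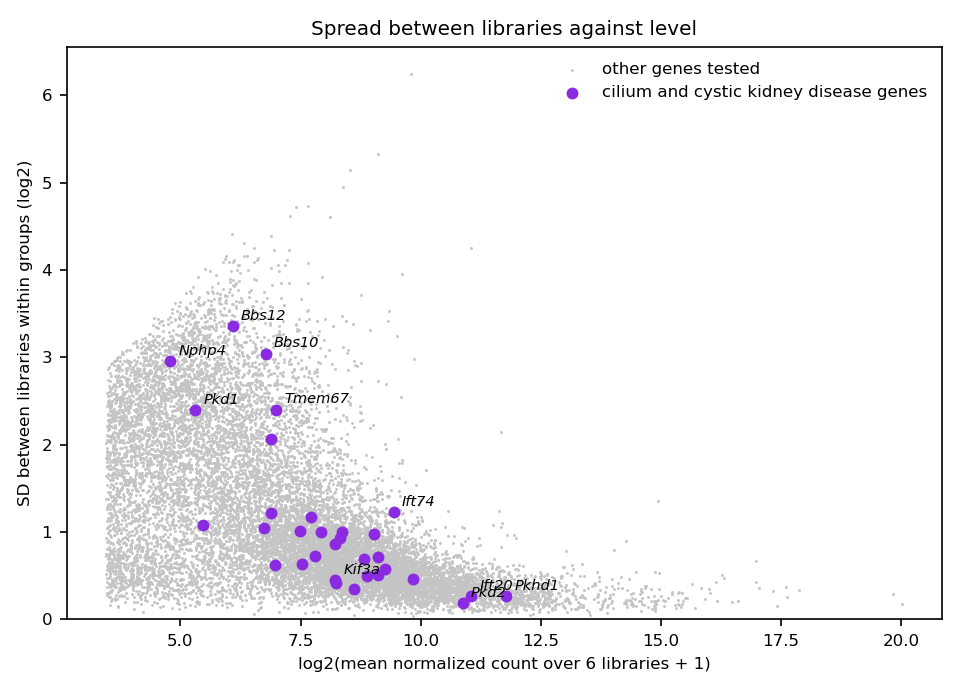
SD between libraries within groups (log2 scale) against the mean level of each gene; grey points are the other genes tested and purple points the 32 cilium and cystic kidney disease genes. Pkd2, Ift20 and Pkhd1 lie at 0.19 to 0.26, while Nphp4, Bbs10 and Bbs12 lie at 2.96, 3.04 and 3.36.

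High and low values were spread over the libraries. The 6 libraries, in the order control 1 to 3 and Terf1_flox 1 to 3, held the highest value for 8, 3, 6, 4, 6 and 5 of the 32 genes and the lowest for 4, 6, 6, 4, 4 and 8. Of the 192 values, 3 were at 0 reads and 12 were under 10 reads, and these came from 6 genes. Over all genes tested, log2 fold changes followed transcript GC content, with a median of 0.37 in the lowest of 5 GC bins and -0.49 in the highest. The 32 genes were spread over the bins, with 7, 7, 9, 6 and 3 genes from low to high GC and medians of 0.22, -0.28, 0.04, -0.23 and 0.17. After correction for GC content and length, 16 of 32 were above 0 and the median was 0.00. In the GENCODE annotation for build GRCm38, 9 of the 32 genes share between 1.31% and 7.86% of their exon bases with another gene, among them Pkd1 with Tsc2 and Bbs4 with Adpgk. Whether the counting used strand is not stated in any source used here, so reads in these stretches could belong to either gene.

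RFX transcription factors drive many cilium genes through a promoter element called the X-box, a pair of inverted half-sites. RefSeq promoter windows on build GRCm38.p6, from 250 bases before to 50 after the start site, were matched for 28 of the 32 genes; Ift80, Ift81, Ift122 and Tmem67 had no entry. An X-box-like pattern on either strand, the half-site GTNNCC followed after any 3 bases by the half-site GNNAC, was present for 6 of these 28 genes (21.4%) and for 5.26% of 27025 genes with such windows. A narrower pattern, GTTNCC followed after any 3 bases by GNAAC, whose matches are all matches of the first one, was present for 1 of 28 (3.57%) and 0.936% of all. Both patterns were chosen after several spellings had been tried, so these shares are a description. The matches that read on both strands are shown to let the half-sites be compared, on the strand of the gene with the 14 matching bases in capitals.
Bbs7, chr3:36613489-36613518, minus strand: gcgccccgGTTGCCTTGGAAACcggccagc
Nphp4, chr4:152477903-152477932, plus strand: cggtgcccGTCTCCTAGGTAACgcgccagc
Ift22, chr5:136908079-136908108, plus strand: ctgtcaggGTTTCCTGGGCTACtgcgcagc
Ift22, chr5:136908109-136908138, plus strand: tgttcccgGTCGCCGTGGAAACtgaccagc
Bbs4, chr9:59353464-59353493, minus strand: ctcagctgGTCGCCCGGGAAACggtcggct
Ift57, chr16:49699199-49699228, plus strand: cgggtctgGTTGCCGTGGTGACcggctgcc
Bbs1, chr19:4906605-4906634, minus strand: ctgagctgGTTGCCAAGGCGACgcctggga
The sequence of Bbs7 is the one that holds the narrower pattern. Of the 6 genes with a match, 3 had a log2 fold change above 0 and 3 below, from -1.23 (Bbs4) to 0.88 (Bbs7), and 0 passed the test. A match describes these letters and is not a binding site.

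Beyond the 32 genes, 10 lists of cilium pathway and cystic kidney genes held 172 further genes that could be tested. In limma 0 of the 172 were called over all genes, with 9 higher (5.23%) and 12 lower (6.98%) at an unadjusted p below 0.05, where the shares over all genes were 5.70% and 8.43%. With edgeR 0 were called and 18 (10.5%, against 13.4% of all genes) had an unadjusted p below 0.05. DESeq2 called 8 of the 162 that received an adjusted p (4.94%, against 5.81% of all genes), of which Hspb11, Rab8a, Rab3ip, Unc119, Spop, Prkar1a and Umod are given with their values here and Muc1 was the eighth. The median log2 fold change was -0.18, with 67 genes above 0 and 105 below. With the deposited scaling, none of the genes named from these lists in the next paragraphs passed in limma, so they are given as values.

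The further IFT subunits (4 of 11 above 0, median -0.44) included Hspb11, the gene with the smallest p of that list. Hspb11, which codes for IFT25, the partner of Ift27 in the IFT-B train, had 518, 432 and 358 normalized counts in control and 1087, 1089.9 and 880.4 in the Terf1_flox group. The groups did not overlap, and the log2 fold change came to 1.23 ± 0.33 (adjusted p = 0.177 in limma and 0.0188 in DESeq2); after correction for GC content and length it was 0.49. Ift27 itself was at 387 ± 77.4 and 389 ± 112 (log2 fold change -0.01 ± 0.41). Ttc30a1 and Ttc30b are near-identical copies of the IFT70 subunit, between which reads may be split. Their log2 fold changes were -3.69 ± 1.46 and -3.27 ± 1.43 at means under 200 normalized counts (limma adjusted p = 0.308 and 0.352). In DESeq2 these were -2.42 and -2.09 (adjusted p = 0.541 and 0.435). Ttc30a1 had 32.6, 2.05 and 0 in the Terf1_flox group, and the Ttc30b groups overlapped. Among the further BBS genes (4 of 7 above 0), Bbip1, the smallest BBSome subunit, had 2539, 1886 and 2222 in control and 3476, 4537 and 2992 in the Terf1_flox group (0.72 ± 0.25, limma adjusted p = 0.253, or 0.45 after correction for GC content and length).

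Of the cilium motor genes (5 of 12 above 0, median -0.11), 3 had an unadjusted limma p below 0.05, where 14.1% of all genes did. They were Dynlrb1, Dynll1 and Dynlt2b, each a dynein light chain with a log2 fold change above 0. In that direction the share over all genes was 5.70%. Another dynein light chain of that list, Dynll2, was at -0.70 ± 0.47 (limma adjusted p = 0.543). Dynlrb1 had 4361, 3228 and 4119.8 normalized counts in control and 5836, 5654 and 5533 in the Terf1_flox group (log2 fold change 0.55 ± 0.20, limma adjusted p = 0.267). Dynll1 had a log2 fold change of 0.68 ± 0.28 and Dynlt2b of 1.51 ± 0.54 (limma adjusted p = 0.319 and 0.270). Dynlrb1 and Dynll1 also serve cytoplasmic dynein.

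Rab8a and Rab3ip, which act in delivery of membrane to the cilium, had lower values in the Terf1_flox group. Rab8a, the GTPase that extends the ciliary membrane, had 1049, 976 and 2268 normalized counts in control and 197, 736 and 381 in the Terf1_flox group, with no overlap (-1.80 ± 0.54, limma adjusted p = 0.209, DESeq2 adjusted p = 0.0263). Rab3ip, or Rabin8, the exchange factor that activates Rab8a, had 1568, 2199.8 and 3205 in control and 902, 1236 and 492 in the Terf1_flox group, also with no overlap (-1.44 ± 0.41, limma adjusted p = 0.195, DESeq2 adjusted p = 0.0174). They came from the list of basal body and centriolar satellite genes, of which 13 of 32 were above 0 and 2 had an unadjusted p below 0.05. Among these 32, Rab11a and Ehd1 had log2 fold changes of 0.24 ± 0.31 and 0.03 ± 0.63, and Ehd3 one of -2.96 ± 1.40. In the list of ciliary membrane traffic and axoneme genes, 3 of 19 lay above 0 and 16 below; their median was -0.67 (-0.27 after correction for GC content and length). The 1 gene of that list with an unadjusted p below 0.05 was Unc119, a carrier of lipidated proteins, with 1.76, 23.8 and 98.7 normalized counts in control and no reads in the Terf1_flox group. Inpp5e, the ciliary phosphoinositide phosphatase that Arl13b retains in the cilium, had 272, 249 and 336 in control and 127, 177 and 119 in the Terf1_flox group (-1.02 ± 0.49, limma adjusted p = 0.388).

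**Figure D5:**
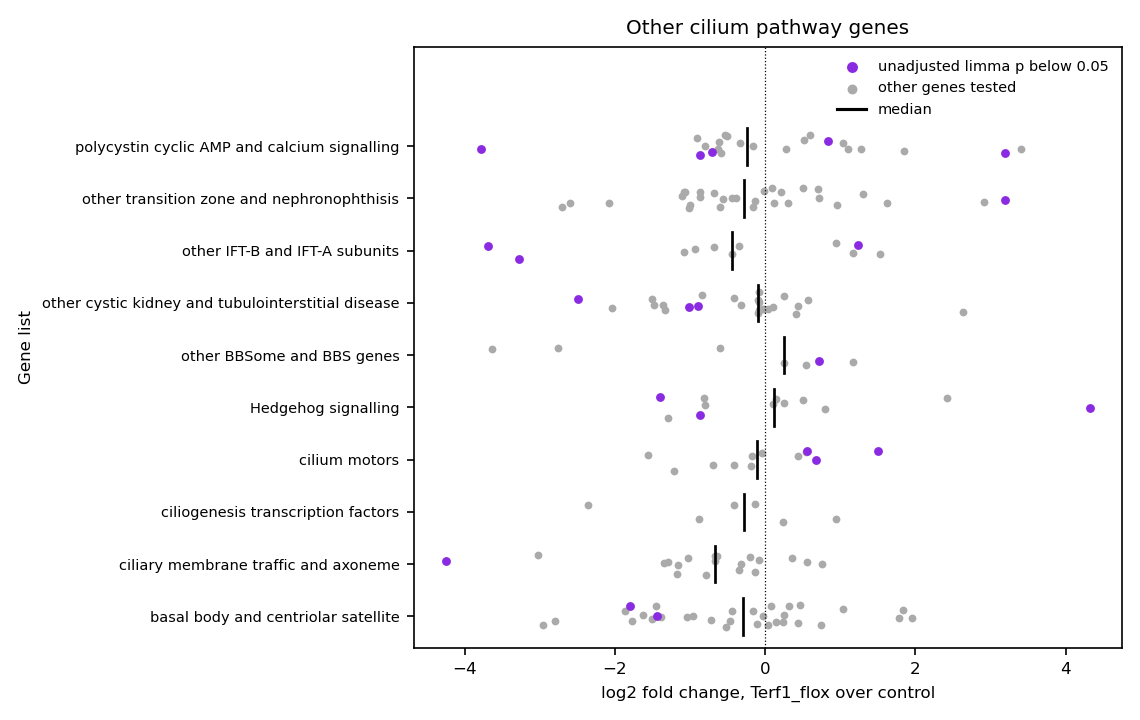
Log2 fold change, Terf1_flox over control, of the further genes in 10 cilium pathway and cystic kidney lists; each point is a gene, purple points have an unadjusted limma p below 0.05 and black bars are list medians. The list of ciliary membrane traffic and axoneme genes has the lowest median, at -0.67.

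The remaining lists had members on both sides of 0. Among Hedgehog genes (7 of 12 above 0), which signal through the cilium, Spop, an adaptor that targets Gli proteins for degradation, averaged 1277 ± 314 normalized counts in control and 473 ± 10.2 in the Terf1_flox group (-1.40 ± 0.32, limma adjusted p = 0.134, DESeq2 adjusted p = 0.00293). Prkar1a, the regulatory subunit of protein kinase A, averaged 4689 ± 1104 and 2514 ± 57.0 (-0.87 ± 0.23, limma adjusted p = 0.168, DESeq2 adjusted p = 0.0170). Both are also used outside the cilium. Cdon, a Hedgehog co-receptor, differed the other way, with 0.88, 57.2 and 1.58 in control and 150.1, 109.8 and 133.6 in the Terf1_flox group (4.32 ± 1.40, limma adjusted p = 0.233, DESeq2 adjusted p = 0.280). The receptor Ptch1 (0.80 ± 0.39) and the pathway inhibitor Sufu (2.42 ± 1.19) were also higher in each Terf1_flox library than in any control library (limma adjusted p = 0.404 and 0.403). Sufu had 93.2, 148 and 4.74 in control, the last far below the others, and 181, 375 and 178 in the Terf1_flox group. In DESeq2 its log2 fold change was 1.59 (adjusted p = 0.441). Of the 12 genes, 3 had no overlap with the Terf1_flox group higher and 2, Spop and Prkar1a, with it lower. The shares over all genes were 10.3% and 10.8%. Smo and Gas1 were at 0.14 ± 0.69 and 0.25 ± 0.42. Among the cyclic AMP and calcium genes (10 of 22 above 0), Tmem33, which interacts with polycystin-2, averaged 1619 ± 336 and 2864 ± 516 (0.83 ± 0.27, limma adjusted p = 0.232), and it was 0.13 after correction for GC content and length. Among the other cystic and tubulointerstitial kidney disease genes (7 of 25 above 0), Umod averaged 119814 ± 21722 and 63592 ± 2840.4 (-0.90 ± 0.15, limma adjusted p = 0.0814, DESeq2 adjusted p = 0.00139; -0.49 after correction). Dnajb11, the chaperone cofactor needed for polycystin-1 maturation, averaged 1567 ± 529.6 and 750.3 ± 92.7 (-1.01 ± 0.34, limma adjusted p = 0.246). Of 30 further transition zone and nephronophthisis genes 12 were above 0, and Xpnpep3 was the 1 gene with an unadjusted p below 0.05. Of 6 ciliogenesis transcription factors 2 were above 0 and 0 had an unadjusted p below 0.05. Rfx5 had the smallest p of these (-2.36 ± 1.47, limma adjusted p = 0.511). Rfx3 averaged 89.0 ± 56.5 and 187 ± 151, with 128, 74.9 and 358 in the Terf1_flox libraries (0.95 ± 0.81, limma adjusted p = 0.650, or 0.27 after correction). The groups overlapped for both.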

How the data were processed

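The authors deposited a single table whose signal is the normalized count, reads over a library size factor with no division by gene length. DESeq2 and build GRCm39 are named per the submitters' processing notes; for aligner, counter and annotation: not given in the sources used here. Dividing each library by its smallest step gave whole reads for 100% of values (tolerance 0.01). Terf1_flox was compared with control in limma (3.58.1, R 4.3.3; mean-variance trend) on log2(normalized count + 1), which understates changes of low genes, although with a library near 0 the fitted change can exceed that of count models. One fit held the 14822 genes whose mean reached 10; p-values were two-sided, adjusted by Benjamini-Hochberg over all of them and called below 0.05. ± after a fold change is its standard error. edgeR (4.0.16) and DESeq2 (1.42.0) were run on the recovered reads as alternatives, of which edgeR called 0 and DESeq2 772 genes. The limma, edgeR and DESeq2 fits were tested on simulated counts. GC content and length were those of the longest protein-coding transcript in GENCODE release 21 for mouse, on GRCm38, so table coordinates are not given; 97.8% of tested genes had values. The correction subtracted a spline of both from each library. Named were Pkd1, Pkd2, Pkhd1, Kif3a, the 6 other members with the smallest p in each direction and up to 3 genes per further list; other names were added after their values were seen. The members and lists were chosen with earlier results of these data known. Figures used matplotlib 3.10.9.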

Additional observations from a re-analysis of the deposited data

How the results depend on the processing

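None of the 32 genes was called under any of 18 alternatives that tested it, and the smallest adjusted p of any of them was 0.309. The minimum mean of 50 tested 29 of them, without Bbs9, Nphp4 and Pkd1, and Nphp4 received no adjusted p in DESeq2. For 12 genes the sign of the log2 fold change was the same in each alternative that tested them, 3 above and 9 below 0. The 16 genes given library by library kept their sign in 274 of 287 refits; the cause of the 13 reversals was not tested. Pkd1 was at -0.35 with Xist as a covariate, and ran from -1.32 (without control replicate 3) to 1.37 when 1 library was left out, with -0.10 and -0.78 without Terf1_flox replicates 2 and 3. Ift74 was at -0.049 with edgeR and -0.063 with DESeq2, and ran from -0.59 (without control replicate 2) to 0.94. Bbs10 was at 0.0054 with edgeR and 0.0090 with DESeq2, and ran from -4.01 to 0.091 (without Terf1_flox replicate 1). Cep290 was at -0.26 with GC content and length corrected, Ift80 ran from -0.20 (without control replicate 1) to 1.02, and Bbs7 from -0.42 (without control replicate 2) to 1.89. The number of the 32 genes above 0 was 8 to 19 when 1 library was left out. The median of the 32 genes ran from -0.27 to 0.13 when 1 library was left out, and was -0.13 with equal library totals, which moved the median of all genes from -0.08 to -0.24. Equal upper quartiles moved the median of all genes to 0.04 and that of the 32 genes to 0.17, and quantile normalization to 0.06 and 0.15. The number of the 32 genes whose groups do not overlap was 0 with quantile normalization and 3 to 5 with 1 library left out, where fewer libraries are compared. Of all genes tested, limma called 0 as deposited and 0 to 0 when 1 library was left out. It called 132 under the stricter minimum mean of 50, 45 after scaling to equal totals and 8 after quantile normalization. DESeq2 called 772. Terf1 passed under the minimum mean of 50 (log2 fold change -3.99), equal totals (-4.17) and DESeq2 (-3.89), and was between -4.42 and -3.77 with 1 library left out. The replicate numbers are shared between groups, but same-numbered libraries did not deviate together (correlations of -0.05, 0.00 and -0.01 across genes). The main fit did not treat them as pairs, although such correlations cannot exclude a weaker factor shared by number. With a replicate block in limma, 0 of the 32 genes and 0 of all genes were called, with the smallest adjusted p of the 32 at 0.534.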
